A study of Mus musculus with 4 samples.

Results

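The let-7 guide strands and miR-98 are the miRs of one ancient seed family. Members were the rows of the RPM table (reads of a miR after scaling to a common library total) whose name starts with let-7 and ends in 5p, together with miR-98-5p. This rule, which uses names and no measured value, found 9 of the 568 miRs of the table, and all 9 were above 100 RPM in every library. The levels were measured in proangiogenic cells (PACs), which were adherent bone marrow cells kept for 4 days on fibronectin after surgical removal of the femoral artery of the donor mice. The aging library came from C57Bl/6 mice of 16 months, and SMK from C57Bl/6 mice of 2 months exposed to cigarette smoke. The HC library came from hypercholesterolemic APOE-/- mice of 2 months, which lack the lipoprotein ligand ApoE and, per the methods, also received a Western-type diet, so genotype and diet cannot be told apart. CTL came from healthy C57Bl/6 mice of 2 months, and ischemia was induced in all groups, CTL included.

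Each condition had 1 library, made from pooled RNA of 2 samples for aging, 4 for SMK, 4 for HC and 6 for CTL by the sample titles (the methods give other pool sizes), so no comparison has a replicate check and no p-value is given. All values of the table were whole multiples of the value of a single count (tolerance 0.001 count), which gave library totals of 1568958 counts in aging, 1670010 in SMK, 1038986 in HC and 2541732 in CTL. Intervals are exact at 95% and cover counting error only. All 3 marker miRs of myeloid cells were found and summed to between 66804 and 76621 RPM in the libraries of the 3 cardiovascular risk factors (CRFs), against 59852 RPM in CTL. Of these, miR-223-3p was above CTL in all 3, whereas miR-142a-3p was at 45474 RPM in aging, at 33972 RPM in SMK and at 30954 RPM in HC, against 36128 RPM in CTL. The 4 marker miRs of stromal and smooth muscle cells summed to 12223 RPM in aging, to 30855 RPM in SMK and to 22638 RPM in HC, against 36010 RPM in CTL, and the 2 of endothelial cells to 13795, 33683 and 18424 RPM, against 29076 RPM in CTL. Among the stromal markers miR-214-3p, at 57.4, 85.0 and 93.4 RPM against 26.8 RPM in CTL, went the other way from the sum, and miR-145a-5p was above CTL in SMK and HC. The 2 epithelial markers summed to 234.6, 196.4 and 199.2 RPM, against 171.1 RPM in CTL. The lymphoid and liver markers and the 1 of 2 erythroid markers found were each at or below 52.0 RPM in every library. The part of cell make-up in the let-7 results was not tested, and a change in the number of cells of a type cannot be told apart from a change in miR per cell in such bulk samples.

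A miR recognizes target transcripts mainly through its seed, bases 2 to 8 from its 5′ end. In the let-7 family this seed is shared, so that members can repress the same transcripts, among them Ras genes, Hmga2, Myc and cyclins. The family accumulates as cells differentiate and restrains proliferation, and the RNA-binding protein LIN28 blocks maturation of its precursors. The mature sequences are shown here because members differ by so few bases that a single read error can turn the name of a member into that of another. They are given 5′ to 3′ from RefSeq (GRCm38.p6), with the seed in capitals.
let-7a-5p: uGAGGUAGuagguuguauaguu
let-7b-5p: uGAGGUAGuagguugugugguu
let-7c-5p: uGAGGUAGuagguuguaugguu
let-7d-5p: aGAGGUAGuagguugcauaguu
let-7e-5p: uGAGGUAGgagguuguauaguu
let-7f-5p: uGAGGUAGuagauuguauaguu
let-7g-5p: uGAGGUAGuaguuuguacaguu
let-7i-5p: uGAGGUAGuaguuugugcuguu
miR-98-5p: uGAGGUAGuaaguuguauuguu

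All 9 sequences had 22 bases and the seed GAGGUAG. They were identical at 14 of the 22 positions, and the 8 that varied lay outside the seed. Counted from the 5′ end and with the base of let-7a-5p first, let-7f-5p carried the single change G12A, let-7c-5p A19G and let-7e-5p U9G. Let-7b-5p carried A17G and A19G, let-7d-5p U1A and U16C, and let-7g-5p G12U and U18C. Let-7i-5p, with G12U, A17G, U18C and A19U, was farthest from let-7a-5p, and miR-98-5p carried G11A and A19U. Of the 36 pairs of members, 4 differed by 1 base and 10 by 2 bases. According to the methods, reads without a perfect match were mapped a second time with up to 2 mismatches, so reads of close members may have been exchanged, and the extent was not tested.

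The 9 mature miRs are made from 12 hairpins, which lie at 8 places in the mouse genome. On chromosome 13, Mirlet7a-1 (48538179 to 48538272), Mirlet7f-1 (48537829 to 48537917) and Mirlet7d (48536012 to 48536114) lie on the minus strand in exons of the noncoding RNA 6720427I07Rik, with 261 bases between the first pair. Mirlet7c-2 (85706603 to 85706697) and Mirlet7b (85707319 to 85707403) lie 621 bases apart on the plus strand of chromosome 15, in exons of the noncoding RNA Lncppara. Mirlet7f-2 (151912346 to 151912428) and Mir98 (151913214 to 151913321) lie 785 bases apart within an intron of the ubiquitin ligase gene Huwe1 (X chromosome). The other hairpins lie alone within the family. Mirlet7g (chromosome 9, 106178840 to 106178927) is in an intron of Wdr82, which encodes a histone methyltransferase cofactor, and Mirlet7e (chromosome 17, 17830352 to 17830444) in an intron of Spaca6. Mirlet7a-2 (chromosome 9, 41536716 to 41536811) and Mirlet7c-1 (chromosome 16, 77599657 to 77599750) are in introns of noncoding RNAs, and Mirlet7i (chromosome 10, 122985640 to 122985724, minus strand) is in an exon of the transcribed pseudogene D630033A02Rik. Reads of let-7a-5p, let-7c-5p and let-7f-5p cannot be assigned to either of their hairpins.

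The family was a large part of the miRs of PACs. Together the 9 members stood at 203626 RPM in aging, at 170077 RPM in SMK and at 181589 RPM in HC, against 199093 RPM in CTL. Of the total counts behind the RPM, this was 20.4% (20.3 to 20.4) in aging, 17.01% (16.95 to 17.06) in SMK and 18.2% (18.1 to 18.2) in HC, against 19.9% (19.9 to 20.0) in CTL. The listed miRs summed to 991037 RPM in aging, 992046 RPM in SMK, 989578 RPM in HC and 996242 RPM in CTL. The shares are thus of miR counts and not of all reads sequenced. The supplement lists fewer miR reads and more tRNA reads in each CRF library than in CTL. In the deposited RPM the family was thus lowest in SMK. When libraries were scaled by a trimmed mean instead, its fold over CTL was lower in HC (0.679) than in SMK (0.726). The most abundant miR of PACs, miR-21a-5p, took between 26.7% and 31.3% of the same total in the CRF libraries and 31% in CTL.

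The order of the members was the same in all 4 libraries, and all members have the same length. It was let-7f-5p, let-7i-5p, let-7a-5p, let-7c-5p, let-7b-5p, let-7d-5p, let-7g-5p, let-7e-5p and miR-98-5p. In the counting intervals, only let-7g-5p and let-7e-5p in HC were not separated (ratio of counts 1.06, 0.992 to 1.12), and let-7d-5p and let-7g-5p in CTL were close (1.06, 1.03 to 1.10). Without replicates, the spread between mice that such an order would have to exceed is not known. The plot of levels by library shows the span of over 2 orders of magnitude from miR-98-5p to let-7f-5p.

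**Figure D1:**
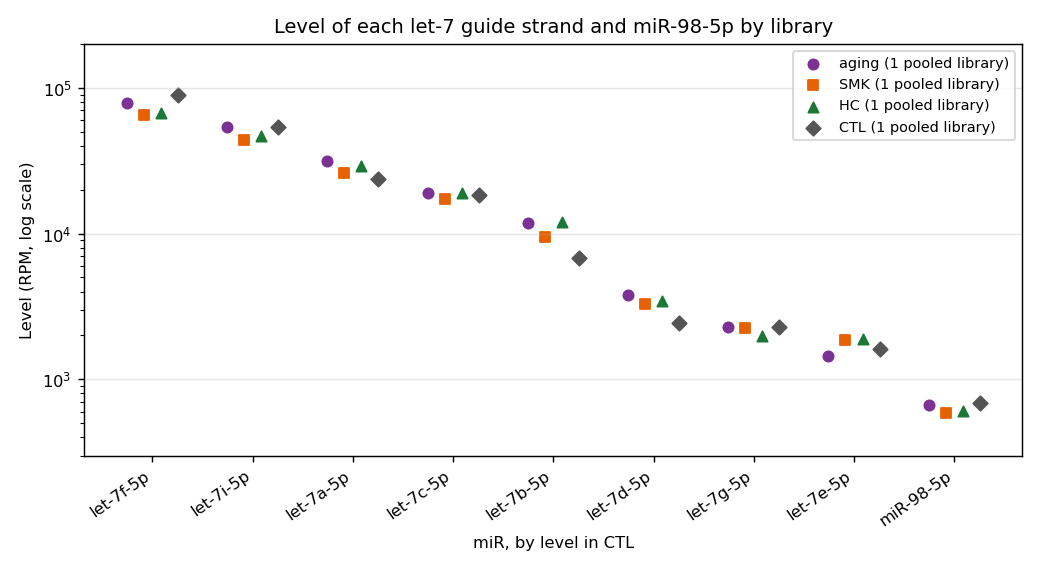
Level in RPM on a log scale (vertical) of each of the 9 members (horizontal, by level in CTL), with 1 point for each pooled library and no error bar. Let-7f-5p lies between 65316 and 89024 RPM and miR-98-5p between 589.8 and 690.1 RPM, and the order of members is the same in every library.

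Let-7f-5p and let-7i-5p made up most of the family. Let-7f-5p, which in human endothelial cells favors sprouting, stood at 79041 RPM in aging, at 65316 RPM in SMK and at 66976 RPM in HC, against 89024 RPM in CTL. It ranked 3 of 568 in each library and lower than in CTL in all 3 CRF libraries, with the lowest levels in SMK and HC. Let-7i-5p, known in human epithelial cells as a repressor of the receptor TLR4, stood at 54058 RPM in aging, at 44053 RPM in SMK and at 46489.6 RPM in HC, against 53894 RPM in CTL. Aging and CTL had nearly the same level of let-7i-5p, and SMK and HC were below both.

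Let-7a-5p, let-7c-5p and let-7b-5p formed a middle group. Let-7a-5p, a repressor of Ras genes and of interleukin 6, stood at 31645 RPM in aging, at 25862 RPM in SMK and at 29231 RPM in HC, against 23867 RPM in CTL. Let-7b-5p, which in mouse neural stem cells lowers Hmga2, stood at 11738 RPM in aging, at 9448 RPM in SMK and at 11947 RPM in HC, against 6791 RPM in CTL. Both were lowest in CTL, and let-7b-5p had the widest range of the 9 members, with 1.76-fold between HC and CTL. Let-7c-5p, which in mouse macrophages favors the alternatively activated state, stood at 18961 RPM in aging, at 17399 RPM in SMK and at 19034 RPM in HC, against 18481 RPM in CTL. Its range of 1.09-fold over the libraries was the narrowest of the family.

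The other members had between 589.8 and 3791 RPM. Let-7d-5p, a repressor of Hmga2 in human lung epithelium, stood at 3791 RPM in aging, at 3266 RPM in SMK and at 3427 RPM in HC, against 2436 RPM in CTL, and was thus lowest in CTL. Let-7g-5p stood at 2288 RPM in aging, at 2268 RPM in SMK and at 1992 RPM in HC, against 2289 RPM in CTL. Only HC stood below the other libraries for let-7g-5p. Let-7e-5p, which lowers TLR4 in mouse macrophages, stood at 1436 RPM in aging, at 1875 RPM in SMK and at 1887 RPM in HC, against 1620.2 RPM in CTL. It was the member whose low value lay in aging. MiR-98-5p stood at 669 RPM in aging, at 589.8 RPM in SMK and at 603 RPM in HC, against 690.1 RPM in CTL, and was highest in CTL.

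Folds were formed with the RPM of CTL as denominator, and the limits of the study, under 0.8-fold for lower and over 1.6-fold for higher, were used with at least 100 RPM in either library of a comparison. In aging, no member was lower and 1 of 9, let-7b-5p, was higher (1.73-fold, 1.69 to 1.76). Over all 154 miRs compared in aging, 26.6% were lower and 33.1% higher. Let-7d-5p, at 1.56-fold (1.502 to 1.61), and let-7a-5p, at 1.33-fold (1.31 to 1.34), lay between the limits. Let-7f-5p was at 0.888-fold (0.882 to 0.894), let-7e-5p at 0.886-fold (0.842 to 0.933) and miR-98-5p at 0.969-fold (0.897 to 1.05). Let-7i-5p (1.003-fold, 0.994 to 1.012), let-7g-5p (0.999-fold, 0.958 to 1.04) and let-7c-5p (1.03-fold, 1.011 to 1.04) were close to CTL. The median log2 fold of the 9 members was 0.0044 (SD across members 0.36), beside 0.24 (SD 0.96) for all miRs compared. Let-7b-5p lost its higher call with scaling by the median ratio (1.56-fold), by a trimmed mean (TMM, 1.32-fold) and after removal of a trend on GC content (1.47-fold). Let-7e-5p and let-7f-5p came under 0.8-fold with the median ratio (0.798-fold and 0.7997-fold) and with a trimmed mean (0.675-fold and 0.676-fold). With a trimmed mean, let-7c-5p (0.782-fold), let-7g-5p (0.761-fold), let-7i-5p (0.764-fold) and miR-98-5p (0.738-fold) did so too.

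In SMK, 1 of 9 members, let-7f-5p, was lower (0.734-fold, 0.728 to 0.739) and none was higher. Over all 146 miRs compared in SMK, 14.4% were lower and 20.5% higher. Let-7i-5p lay just inside the lower limit (0.817-fold, 0.810 to 0.825), and miR-98-5p was at 0.855-fold (0.790 to 0.925). Let-7b-5p (1.39-fold, 1.36 to 1.42) and let-7d-5p (1.34-fold, 1.29 to 1.39) had the highest folds of the family, followed by let-7e-5p (1.16-fold, 1.10 to 1.21) and let-7a-5p (1.08-fold, 1.07 to 1.10). Let-7g-5p was at 0.991-fold (0.951 to 1.03) and let-7c-5p at 0.941-fold (0.928 to 0.955). The median log2 fold of the members was -0.014 (SD 0.32), beside 0.20 (SD 0.54) for all miRs compared. The lower call of let-7f-5p held under the 4 other scalings (median ratio, trimmed mean, totals without miR-21a-5p and totals without the members), between 0.623-fold and 0.737-fold, and was at 0.799-fold after removal of the GC trend. Let-7i-5p came under 0.8-fold with the median ratio (0.733-fold), with a trimmed mean (0.694-fold), without the members in the totals (0.789-fold) and after removal of the GC trend (0.754-fold). MiR-98-5p did so with the median ratio (0.766-fold) and a trimmed mean (0.726-fold), and let-7c-5p with a trimmed mean (0.7996-fold).

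In HC, 1 of 9 members, let-7f-5p, was lower (0.752-fold, 0.746 to 0.759) and 1, let-7b-5p, was higher (1.76-fold, 1.72 to 1.80). Over all 158 miRs compared in HC, 18.4% were lower and 34.8% higher. Let-7d-5p (1.41-fold, 1.35 to 1.47), let-7a-5p (1.22-fold, 1.21 to 1.24) and let-7e-5p (1.16-fold, 1.10 to 1.23) were above CTL and between the limits. Let-7i-5p (0.863-fold, 0.854 to 0.872), let-7g-5p (0.870-fold, 0.827 to 0.915) and miR-98-5p (0.874-fold, 0.797 to 0.959) were below CTL and between the limits, and let-7c-5p was at 1.03-fold (1.013 to 1.05). The median log2 fold of the members was 0.042 (SD 0.40), beside 0.32 (SD 1.03) for all miRs compared. Let-7b-5p lost its higher call with the median ratio (1.59-fold), with a trimmed mean (1.31-fold) and after removal of the GC trend (1.35-fold). The lower call of let-7f-5p ended after removal of the GC trend (0.963-fold). Let-7i-5p came under 0.8-fold with the median ratio (0.778-fold), with a trimmed mean (0.642-fold) and after removal of the GC trend (0.784-fold). With the median ratio and a trimmed mean, let-7g-5p (0.785-fold and 0.648-fold) and miR-98-5p (0.789-fold and 0.651-fold) did so too, as did let-7c-5p with a trimmed mean (0.767-fold).

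**Figure D2:**
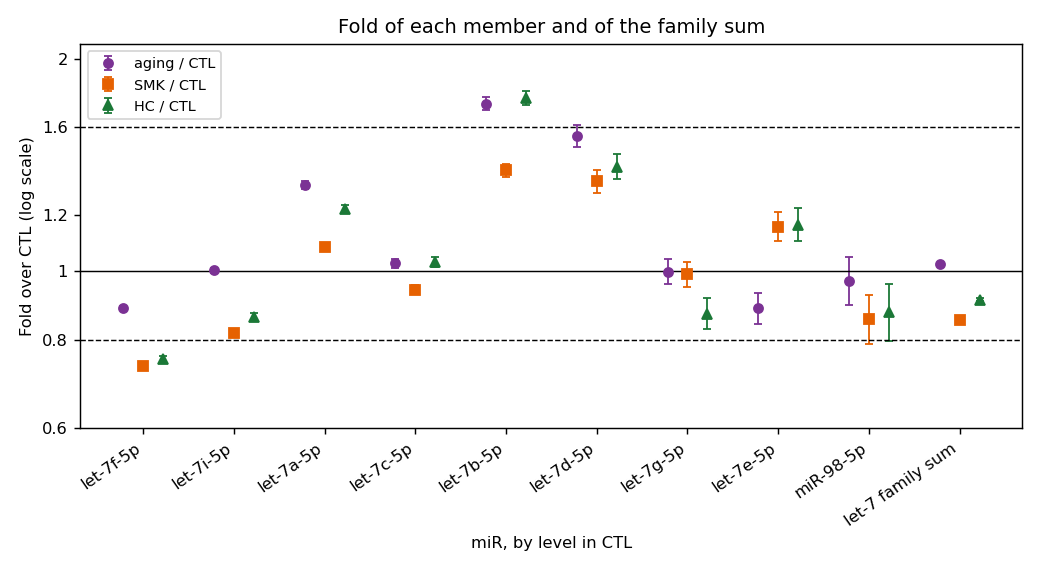
Fold over CTL on a log scale (vertical) of each member and of the family sum (horizontal) in aging, SMK and HC, with bars for the exact 95% interval of counting error and dashed lines at 0.8-fold and 1.6-fold. Let-7b-5p lies above 1.6-fold in aging and HC, let-7f-5p below 0.8-fold in SMK and HC, and the other members lie between the lines.

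The family sum stayed between the limits in each comparison. It was at 1.02-fold (1.02 to 1.03) in aging, 0.854-fold (0.850 to 0.858) in SMK and 0.912-fold (0.907 to 0.917) in HC. The fold of the sum in aging was below 1 with the median ratio (0.921), with a trimmed mean (0.779) and without miR-21a-5p in the totals (0.963). In SMK and HC the sum was below CTL under each of the 4 other scalings, but without let-7f-5p it was at 1.04-fold in HC. All 3 comparisons share the CTL library, so a value particular to that library would enter each of them. Scaling by the median ratio lowered every log2 fold by about the same amount in the 3 comparisons, with shifts of -0.15, -0.16 and -0.15 for aging, SMK and HC, while a trimmed mean gave -0.39, -0.24 and -0.43.

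Shares within the family do not depend on the scaling between libraries. Let-7f-5p was 38.8% (38.6 to 39.0) of the family in aging, 38.4% (38.2 to 38.6) in SMK and 36.9% (36.7 to 37.1) in HC, against 44.7% (44.6 to 44.9) in CTL. Let-7a-5p was 15.5% (15.4 to 15.7), 15.2% (15.1 to 15.3) and 16.1% (15.9 to 16.3) in these CRF libraries, against 12.0% (11.9 to 12.1) in CTL. For both members the CRF libraries thus lay close together, with less let-7f-5p and more let-7a-5p than CTL. Let-7e-5p was apart from this, with 0.705% (0.676 to 0.735) in aging, 1.10% (1.06 to 1.14) in SMK and 1.04% (0.994 to 1.09) in HC, on either side of the 0.814% (0.789 to 0.839) in CTL. Let-7b-5p made up 5.76% of the family in aging, 5.56% in SMK and 6.58% in HC, against 3.41% in CTL, and let-7d-5p was 1.86%, 1.92% and 1.89%, against 1.22% in CTL. Let-7i-5p made up 26.5% in aging, 25.9% in SMK and 25.6% in HC, against 27.1% in CTL. The share of let-7c-5p in aging (9.31%, 9.21 to 9.41) was not separated from that in CTL (9.28%, 9.20 to 9.36), and it was 10.2% in SMK and 10.48% in HC. MiR-98-5p kept to between 0.328% and 0.347% in all 4 libraries, and its intervals overlapped. With let-7f-5p left out of the family, let-7i-5p was 43.4% of the rest in aging, 42.1% in SMK and 40.6% in HC, against 49.0% in CTL. MiR-98-5p was then 0.537%, 0.563% and 0.527%, against 0.627% in CTL, and let-7c-5p 15.2%, 16.6% and 16.6%, against 16.8% in CTL. The steady share of miR-98-5p and the larger let-7c-5p share in SMK and HC thus depended on let-7f-5p in the denominator.

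**Figure D3:**
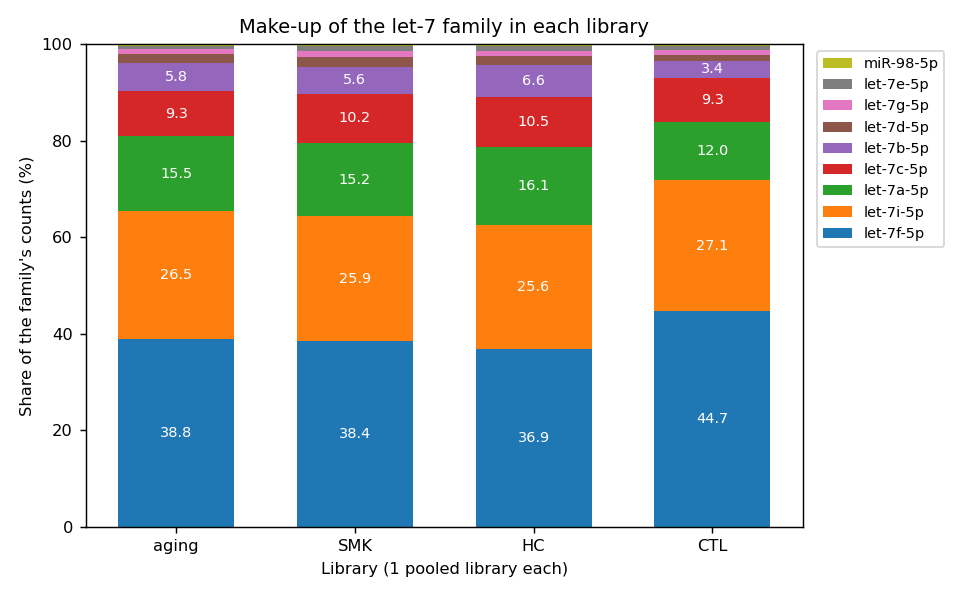
Share of the family's counts in percent (vertical) taken by each of the 9 members, as stacked bars, 1 for each pooled library. The let-7f-5p share is between 36.9% and 38.8% in the CRF libraries, against 44.7% in CTL, and the let-7a-5p and let-7b-5p shares are larger in the CRF libraries.

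Let-7a-5p and let-7f-5p, which differ by G12A alone, had folds on opposite sides of 1 in each comparison of the deposited RPM. Their levels were thus closer to each other in each CRF library than in CTL. Counts of let-7f-5p were 2.498 times those of let-7a-5p in aging, 2.53 times in SMK and 2.29 times in HC, against 3.73 times in CTL. The sum of the pair was at 0.980-fold in aging, 0.808-fold in SMK and 0.852-fold in HC. Counts of let-7c-5p were 1.62 times those of let-7b-5p in aging, 1.84 times in SMK and 1.59 times in HC, against 2.72 times in CTL, and these also differ by a single base. When the 5 members connected by single-base differences (let-7a-5p, let-7b-5p, let-7c-5p, let-7e-5p and let-7f-5p) were summed, their folds were 1.02 for aging, 0.858 for SMK and 0.923 for HC, and no call remained in the family. Whether reads were exchanged within the pairs to a different extent in the libraries was not tested.

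Base composition varied with the folds. The GC content was 31.8% for let-7f-5p and miR-98-5p, 36.4% for let-7a-5p and let-7g-5p, 40.9% for let-7c-5p, let-7d-5p, let-7e-5p and let-7i-5p, and 45.5% for let-7b-5p. Over the 9 members, Pearson's r between GC content and log2 fold reached 0.57 for aging, 0.70 for SMK and 0.75 for HC. Over all miRs compared that had a sequence it was 0.37 in aging (138 miRs), 0.48 in SMK (132 miRs) and 0.57 in HC (141 miRs). These values are descriptions across miRs of the same libraries, which are not independent replicates, and all 3 share the CTL library. Members of equal GC content still differed. Let-7d-5p and let-7i-5p, both at 40.9%, were at 1.56-fold and 1.003-fold in aging, 1.34-fold and 0.817-fold in SMK, and 1.41-fold and 0.863-fold in HC. After removal of the trend fitted over all miRs compared, no member was higher in any comparison. Among all miRs, 23 of 138 were then higher and 40 lower in aging, 10 of 132 higher and 30 lower in SMK, and 22 of 141 higher and 49 lower in HC. Let-7f-5p and let-7i-5p were then lower in SMK and let-7i-5p in HC (0.784-fold). The line removed included its intercept, so this step also re-centred all folds of a comparison. The median log2 fold of all miRs with a sequence was then 0.050 in aging, -0.027 in SMK and -0.037 in HC. Calls lost or gained in this step thus mix re-centring with GC content, and the part of each was not tested.

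**Figure D4:**
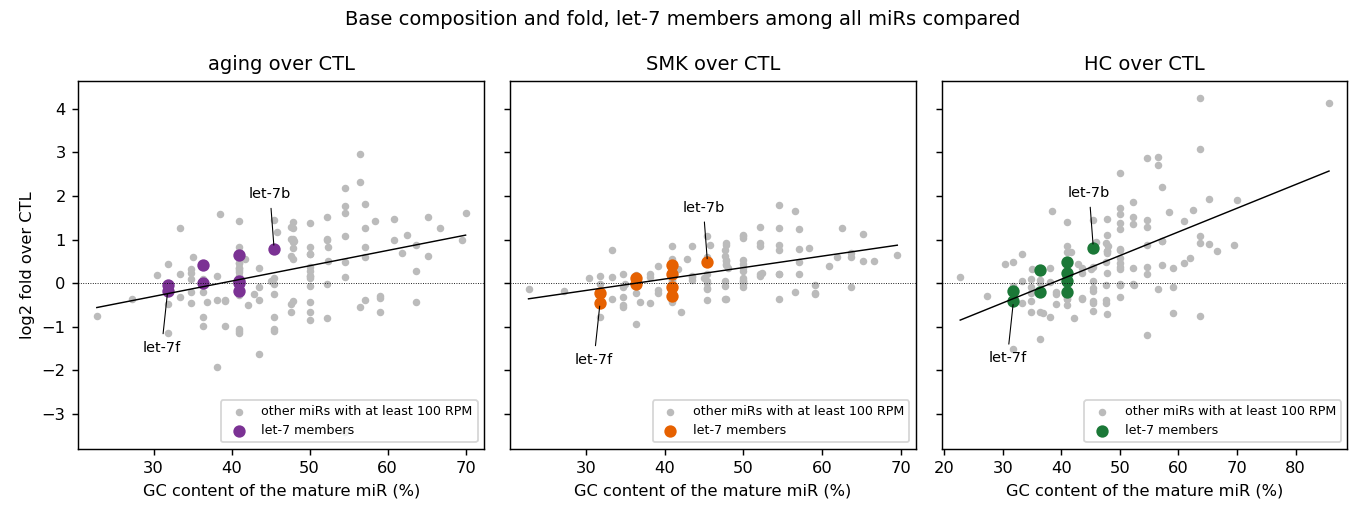
Log2 fold over CTL (vertical) against GC content of the mature miR in percent (horizontal) in aging, SMK and HC, with the 9 members in colour, the other miRs with at least 100 RPM in either library in grey and a straight line fitted to all. Let-7f-5p, at 31.8% GC, lies low and let-7b-5p, at 45.5% GC, lies high among the members. Let-7b-5p lies above the line in each comparison (1.47-fold in aging, 1.18-fold in SMK and 1.35-fold in HC after removal of the trend). Let-7f-5p lies near the line in aging and HC (1.05-fold and 0.963-fold) and below it in SMK (0.799-fold).

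Members with a hairpin in a shared cluster did not all share a fold. Let-7a-5p, let-7c-5p and let-7f-5p each have another hairpin elsewhere, so their folds are not those of a single cluster. Let-7a-5p, let-7d-5p and let-7f-5p have hairpins in the same cluster on chromosome 13, but were at 1.33-fold, 1.56-fold and 0.888-fold in aging, 1.08-fold, 1.34-fold and 0.734-fold in SMK, and 1.22-fold, 1.41-fold and 0.752-fold in HC. Let-7b-5p and let-7c-5p, of the cluster on chromosome 15, were at 1.73-fold and 1.03-fold in aging, 1.39-fold and 0.941-fold in SMK, and 1.76-fold and 1.03-fold in HC. Let-7f-5p and miR-98-5p, paired on the X chromosome, were both below CTL in the 3 CRF libraries in the deposited RPM and under the 4 other scalings. After removal of the GC trend, both were above CTL in aging, and miR-98-5p also in HC.

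The CRF libraries can also be set against each other, without CTL, here in the deposited RPM only. Let-7b-5p did not differ between HC and aging beyond counting error (HC over aging 1.02-fold, 0.995 to 1.04), nor did let-7c-5p (1.004-fold, 0.986 to 1.02). Let-7f-5p (0.847-fold, 0.840 to 0.855) and let-7i-5p (0.860-fold, 0.850 to 0.870) were lower in HC than in aging, whereas let-7e-5p was higher (1.31-fold, 1.24 to 1.40). Between HC and SMK, all members lay from 0.879-fold (let-7g-5p) to 1.26-fold (let-7b-5p). Between aging and SMK they lay from 0.766-fold (let-7e-5p) to 1.24-fold (let-7b-5p), and the family sum was at 1.197-fold (1.19 to 1.203). The factors of the trimmed mean were 1.094 for aging, 0.981 for SMK and 1.119 for HC. That scaling would thus lower aging and HC against SMK, and folds near 1 could change sides.

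Likeness of pattern was taken as the root mean square difference of log2 RPM, centred over the 4 libraries, and 44 other miRs had at least 1000 RPM in all of them. The miRs most like let-7f-5p were miR-148a-3p (0.042), miR-29a-3p (0.051), miR-101a-3p (0.085), miR-30e-5p (0.10) and miR-7a-5p (0.12). Within the family, let-7i-5p (0.078) and miR-98-5p (0.090) were nearest to let-7f-5p. The miRs most like let-7b-5p were miR-103-3p (0.062), miR-107-3p (0.084), miR-378a-3p (0.12), miR-221-3p (0.13) and miR-140-3p (0.15), and within the family it was let-7d-5p (0.12). Let-7b-5p and let-7f-5p differed by 0.46 on this measure. The miRs most like the family sum were miR-148a-3p (0.072), miR-34a-5p (0.073), miR-15a-5p (0.088), miR-146b-5p (0.088) and miR-16-5p (0.090).

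Some let-7 hairpins share transcripts with miRs of the miR-99/100 and miR-125 families, which are known from hematopoietic stem cells. Of 5 such partners, 1 was lower and none was higher in aging (miR-100-5p, 0.633-fold, 0.558 to 0.717). In SMK none was lower and 2 were higher, and in HC none was lower and 3 were higher. Over all miRs compared in aging, SMK and HC, 26.6%, 14.4% and 18.4% were lower and 33.1%, 20.5% and 34.8% higher. Of the SMK calls, miR-99b-5p lay just past the limit, which its interval spans (1.62-fold, 1.499 to 1.74). The reference used gave no hairpin locus for Mir99b, so its distance to Mirlet7e is not given. MiR-125a-5p, made 367 bases from Mirlet7e, was at 1.58-fold (1.498 to 1.66) in aging, 2.04-fold (1.94 to 2.14) in SMK and 2.99-fold (2.85 to 3.14) in HC, while let-7e-5p was at 0.886-fold, 1.16-fold and 1.16-fold. MiR-99a-5p, made 656 bases from Mirlet7c-1, was at 1.21-fold in aging, 1.22-fold in SMK and 1.49-fold in HC, and let-7c-5p at 1.03-fold, 0.941-fold and 1.03-fold. In the deposited RPM, let-7e-5p and let-7c-5p were thus nearer to CTL than these partners in the 3 CRF libraries. With a trimmed mean, let-7c-5p was at 0.782-fold, 0.7996-fold and 0.767-fold, and let-7e-5p at 0.675-fold, 0.983-fold and 0.868-fold, in aging, SMK and HC. Folds of the partners with a trimmed mean were not worked out, so which of a pair is nearer to CTL is stated for the deposited RPM only. Let-7a-5p, whose hairpin Mirlet7a-2 lies 5211 bases from Mir100, was at 1.33-fold in aging, 1.08-fold in SMK and 1.22-fold in HC, and miR-100-5p at 0.633-fold, 1.08-fold and 1.25-fold, so the pair lay apart in aging and close in SMK and HC. Let-7a-5p and let-7c-5p also have hairpins away from these partners, and their reads cannot be assigned to either hairpin.

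The guide strands outnumbered the other arm of their hairpins throughout. Of the 10 rows of let-7 and miR-98 3p arms in the table, 3 reached 100 RPM in each comparison, none of them lower, with 1 higher in aging, 1 in SMK and 2 in HC. Among all miRs compared in aging, SMK and HC, 26.6%, 14.4% and 18.4% were lower and 33.1%, 20.5% and 34.8% higher. Let-7d-3p stood at 270.9 RPM in aging, at 224.6 RPM in SMK and at 343.6 RPM in HC, against 104.7 RPM in CTL, and was higher in each (2.59-fold, 2.15-fold and 3.28-fold). The ratio of let-7d-5p to let-7d-3p was 14.0 (12.7 to 15.5) in aging, 14.5 (13.1 to 16.2) in SMK and 9.97 (8.94 to 11.2) in HC, against 23.3 (20.6 to 26.4) in CTL. Let-7b-3p was higher in HC (1.72-fold, 1.495 to 1.98) and between the limits in aging (1.58-fold) and SMK (1.28-fold), and its guide exceeded it 38.2 times in aging, 37.9 times in SMK and 35.7 times in HC, against 34.9 times in CTL, with overlapping intervals. The excess of the guide was large for let-7f-5p, with 1088 times in aging, 1029 times in SMK and 849 times in HC, against 1347 times in CTL, and for let-7i-5p, with 1047, 1247 and 805 times in these CRF libraries, against 1062 times in CTL. Let-7e-5p, at 751 times (257 to 3644) in aging and 490.2 times (191 to 1801) in HC on 3 and 4 counts of its 3p arm, was not separated from them there.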

How the data were processed

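RPM were made by the authors. Per the methods, QIAseq libraries of pooled RNA were sequenced on a NextSeq instrument, mapped with bowtie to mouse miRBase 21 and normalized by library size. The submitters' processing notes name bcl2fastq 2.20, TopHat2 2.0.10, HTSeq 0.5.4 and mm10, and these accounts were not reconciled. The supplement lists reads with defective molecular identifiers, so identifiers were read, but whether the deposited values count merged molecules was not worked out here, and recovered units are called counts. Dividing each deposited RPM by the smallest of its library gave whole numbers for 100% of values.

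Folds are ratios of RPM without a pseudocount, and their interval is the exact conditional binomial interval of a ratio of Poisson counts. Shares have Clopper-Pearson intervals. A count test was not possible with 1 library per condition. Percentages of all miRs past the limits cover those with at least 100 RPM in either library. Mature sequences (RefSeq, GRCm38.p6) matched all 9 members, and hosts come from GENCODE M21. The GC trend was a straight line over all miRs compared that had a sequence (89.2% to 90.4%). Its removal took out the intercept as well as the slope. The median ratio used 123 miRs with 100 RPM in all libraries.

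The members named are all 9, and other miRs follow a rule on hairpin partners, opposite arms, shared seed and likeness of pattern. Members, lists, limits and alternatives were chosen with earlier results of these data known. The code for folds and intervals was run on counts simulated from the Poisson model that the intervals assume. Such counts hold no variation between pools or mice, so the run says nothing about that spread. The work used Python 3.11.15, numpy 2.4.6, scipy 1.17.1, pandas 2.3.3, matplotlib 3.10.9, and edgeR 4.0.16 in R 4.3.3, only to scale by a trimmed mean of M-values.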

Additional observations from a re-analysis of the deposited data

How the results depend on the processing

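Each condition had 1 library, and the shallowest, HC, still held 627 counts of the rarest member, so depth limits the members little and the missing replicates limit every fold. The fold of the family sum, 1.02 in aging, 0.854 in SMK and 0.912 in HC, became 0.921, 0.766 and 0.823 with the median ratio, 0.779, 0.726 and 0.679 with a trimmed mean (TMM), and 1.03, 0.824 and 0.893 without the members in the totals. Without miR-21a-5p in the totals it was 0.963 in aging and 0.867 in HC, and after removal of the GC trend 1.08 in aging and 0.973 in HC. The sum without let-7f-5p gave 1.13, 0.952 and 1.04, the sum without let-7i-5p 1.03, 0.868 and 0.930, and the geometric mean of the members 1.12, 1.013 and 1.07. The number of members called, 1 in aging, 1 in SMK and 2 in HC, became 2, 3 and 4 with the median ratio and 6, 4 and 5 with a trimmed mean. Each of these scalings shifts all folds of a comparison by the same factor, and in these data the shift was downward. Among all miRs the lower calls became 51 of 154, 32 of 146 and 43 of 158 with the median ratio and 64, 39 and 67 with a trimmed mean, against 41, 21 and 29 in the deposited RPM. The number of members called was 0, 2 and 1 after removal of the GC trend, and 2 in SMK without the members in the totals. Limits of 1.5-fold gave 2, 0 and 1, and limits of 2-fold gave 0 in each comparison. Summing members chained together by single-base differences also gave 0 in each. With differences of up to 2 bases, all 9 members were chained into 1 group, so that step repeats the family sum and is no separate check. Pseudocounts of 1 and 10 RPM, another minimum level and none, and intervals wholly past the limit left the number of members called as in the deposited RPM. Of the 27 member folds, 23 stayed on the same side of 1 with the median ratio, 20 with a trimmed mean and 20 after removal of the GC trend, and the 4 folds past the limits changed sign under none of the scalings, the pseudocounts or the GC trend. No paired analysis was possible because each condition has a single library.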

Other observations

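The table holds 3 further miRs that resemble the family and fall outside the rule, all under 100 RPM. Let-7k has the let-7 seed and over its 19 bases differs from let-7b-5p at 1 position. It stood at 23.6 RPM in aging, at 15.6 RPM in SMK and at 23.1 RPM in HC, against 15.7 RPM in CTL, or 37, 26, 24 and 40 counts. Let-7j, whose seed GAGGUAU departs from that of the family, differs at 1 of 22 bases from let-7i-5p. It stood at 45.3 RPM in aging, at 27.5 RPM in SMK and at 36.6 RPM in HC, against 24.8 RPM in CTL, and its fold in aging was 1.83 (1.28 to 2.61). MiR-1961, with the let-7 seed in 17 bases, had between 5 and 14 counts in each library. The part of misread let-7b-5p or let-7i-5p in these counts was not tested.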
